A study of Mus musculus with 45 samples.

Results

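10 genes of cytotoxic lymphocytes were followed across the primary tumor, spleen, lung and an implanted scaffold of mice that carried 1 of 3 related breast tumors or no tumor. They were taken by name: Cd8a and Cd8b1, which encode the chains of the CD8 co-receptor; Ncr1, Klrb1c and Eomes, which mark natural killer (NK) cells; Gzma, Gzmb, Prf1 and Nkg7, which belong to the killing machinery; and the cytokine gene Ifng. All 10 were present among the 55367 gene symbols of the count table. The 45 libraries fell into 15 groups of 3. Female BALB/c mice received a porous polycaprolactone scaffold under the skin at 7 to 8 weeks of age, and tumor-bearing mice later received an orthotopic inoculation of tumor cells. The cells were 67NR, which stay at the primary site, 4T07, which reach distant tissue without forming secondary tumors there, or 4T1, which metastasize. These lines came from a single spontaneous mouse mammary tumor, so each line is 1 model of its behaviour. Tissues were taken on day 14, and control mice had scaffolds but no tumor. Libraries could not be tied to individual mice, so the p-values below measure only the spread between these libraries.

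Cytotoxic T cells and NK cells kill by releasing granules onto a target cell. Perforin, encoded by Prf1, opens the target membrane so that granzymes such as those encoded by Gzma and Gzmb can enter, and Nkg7 encodes a granule membrane protein. CD8 binds class I histocompatibility molecules beside the T cell receptor, Ncr1 encodes the activating receptor NKp46 and Klrb1c encodes NK1.1, whose BALB/c form the usual NK1.1 antibody does not bind. Eomes is a T-box transcription factor of both cell types, and interferon gamma, the product of Ifng, acts on most cells of a tissue.

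The sequence before the start of 3 genes is shown because the results below turn on them: Gzma and Klrb1c fell, and Nkg7 rose, in 4T07 and 4T1 spleens. Each run holds the 250 bases before the RefSeq start in build GRCm38.p6, 5′ to 3′ on the strand of the gene, and capitals mark matches to the Runx letters TGTGGT, the T-box letters TCACACC or the interferon gamma site (GAS) letters TTCNNNGAA on either strand. The windows are chr13:113100982-113101231 on the minus strand for Gzma, chr6:128788642-128788891 on the minus strand for Klrb1c and chr7:43436888-43437137 on the plus strand for Nkg7.
Gzma: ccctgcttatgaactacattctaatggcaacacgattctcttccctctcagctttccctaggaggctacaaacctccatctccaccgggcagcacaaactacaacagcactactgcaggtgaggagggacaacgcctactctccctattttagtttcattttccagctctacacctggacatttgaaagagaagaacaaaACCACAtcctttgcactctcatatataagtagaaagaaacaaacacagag
Klrb1c: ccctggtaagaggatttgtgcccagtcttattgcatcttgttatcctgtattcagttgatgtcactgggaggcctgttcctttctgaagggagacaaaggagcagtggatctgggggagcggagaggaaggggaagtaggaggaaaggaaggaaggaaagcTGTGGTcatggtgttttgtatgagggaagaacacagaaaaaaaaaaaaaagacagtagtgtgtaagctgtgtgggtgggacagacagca
Nkg7: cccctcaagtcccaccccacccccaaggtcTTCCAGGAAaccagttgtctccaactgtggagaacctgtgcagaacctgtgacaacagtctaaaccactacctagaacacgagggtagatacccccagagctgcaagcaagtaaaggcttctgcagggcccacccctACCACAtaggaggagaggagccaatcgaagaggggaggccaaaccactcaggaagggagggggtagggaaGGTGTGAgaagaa
Of the 10 genes, 9 had an entry, and 6 of these (Gzma, Gzmb, Prf1, Nkg7, Ncr1 and Klrb1c) held the Runx letters within 250 bases, against 14.0% of the 32851 windows in the table. The T-box letters were found in Nkg7 alone of the 9, against 3.33% of windows. The GAS letters were found in Nkg7 and Ifng, against 7.02%. The AP-1 letters TGANTCA were found in Gzmb alone, against 6.75%, and the C/EBP letters TTNNGCAA in Cd8a alone, against 9.56%. No matches overlapped each other. Such matches describe the letters and are not evidence of binding.

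Library totals ran from 3491888 to 8175380 counts (median 5149589), so that 3 counts, taken here as the lowest level that can be read, corresponded to 0.367 to 0.859 CPM, the count scaled to a common library total. Surfactant and other lung markers (Sftpc, Sftpb, Scgb1a1 and Ager) summed to 23568 to 31725 CPM in control, 67NR and 4T1 lungs but to 5064 to 13053 CPM in the 3 lungs of 4T07 mice. Those same 4T07 lungs held 43230.5 to 57066 CPM of erythroid markers, against 11987 to 23449 CPM in the other lungs, and 344 to 471 CPM of B cell markers, against 68.9 to 137 CPM. The 4T07 lungs stood apart as a group, and every lung comparison that includes them carries this difference. Epithelial tumor markers (Epcam, Krt8 and Krt18) summed to 763 to 897 CPM in 4T1 tumors, 87.1 to 140 CPM in 4T07 tumors and 6.78 to 12.9 CPM in 67NR tumors. In spleens, B cell markers summed to 956 to 1110 CPM in control and 963 to 1084 CPM in 67NR mice, and to 254 to 470 CPM in 4T07 and 4T1 mice.

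Without a tumor, the CD8 genes were highest in spleen and lowest in the scaffold, whereas Ncr1 stayed within a 2-fold change between the tissues. Gene levels were compared with edgeR's quasi-likelihood test on the 9 control libraries, at an adjusted p under 0.05 and a fold over 2. Against spleen, 4 of the 10 genes were lower in lung (36.8% of 21602 genes tested passed in that comparison), 7 were lower in scaffold (31.5% of genes passed), and scaffold against lung gave 2 lower genes, Cd8a and Cd8b1 (30.0% passed). Without 1 of the control lungs (Cd8a at 3.49 CPM) neither of the last 2 passed. Cd8a read 26.6, 29.1 and 21.3 CPM in control spleens, 3.49, 2.89 and 2.10 CPM in control lungs, and 0, 1.11 and 0.944 CPM in control scaffolds. The tissues did not overlap, and the log2 difference was -3.22 ± 0.35 (SE; adjusted p = 1.8e-06) for lung against spleen and -4.92 ± 0.42 (adjusted p = 1.93e-07) for scaffold against spleen. Cd8b1 fell by 2.58 ± 0.25 and by 3.62 ± 0.29 on the log2 scale in the same comparisons. Ncr1, in contrast, averaged 37.3 ± 9.29 CPM (SD) in spleen, 22.6 ± 2.95 CPM in lung and 20.3 ± 3.21 CPM in scaffold, and none of its differences reached a 2-fold change. For Gzma the means were 104 ± 23.2, 82.6 ± 21.2 and 37.0 ± 6.21 CPM, and scaffold against spleen passed (log2 -1.31 ± 0.23, adjusted p = 0.000261). Prf1, Klrb1c, Eomes and Nkg7 were also lower in scaffold than in spleen, by 1.38, 1.41, 1.48 and 1.76 on the log2 scale as absolute sizes. Ifng was at 3 counts or fewer in every control lung and scaffold library, so no fold is given between those tissues. In bulk RNA, fewer cells of a type and less RNA per cell cannot be told apart.

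**Figure D1:**
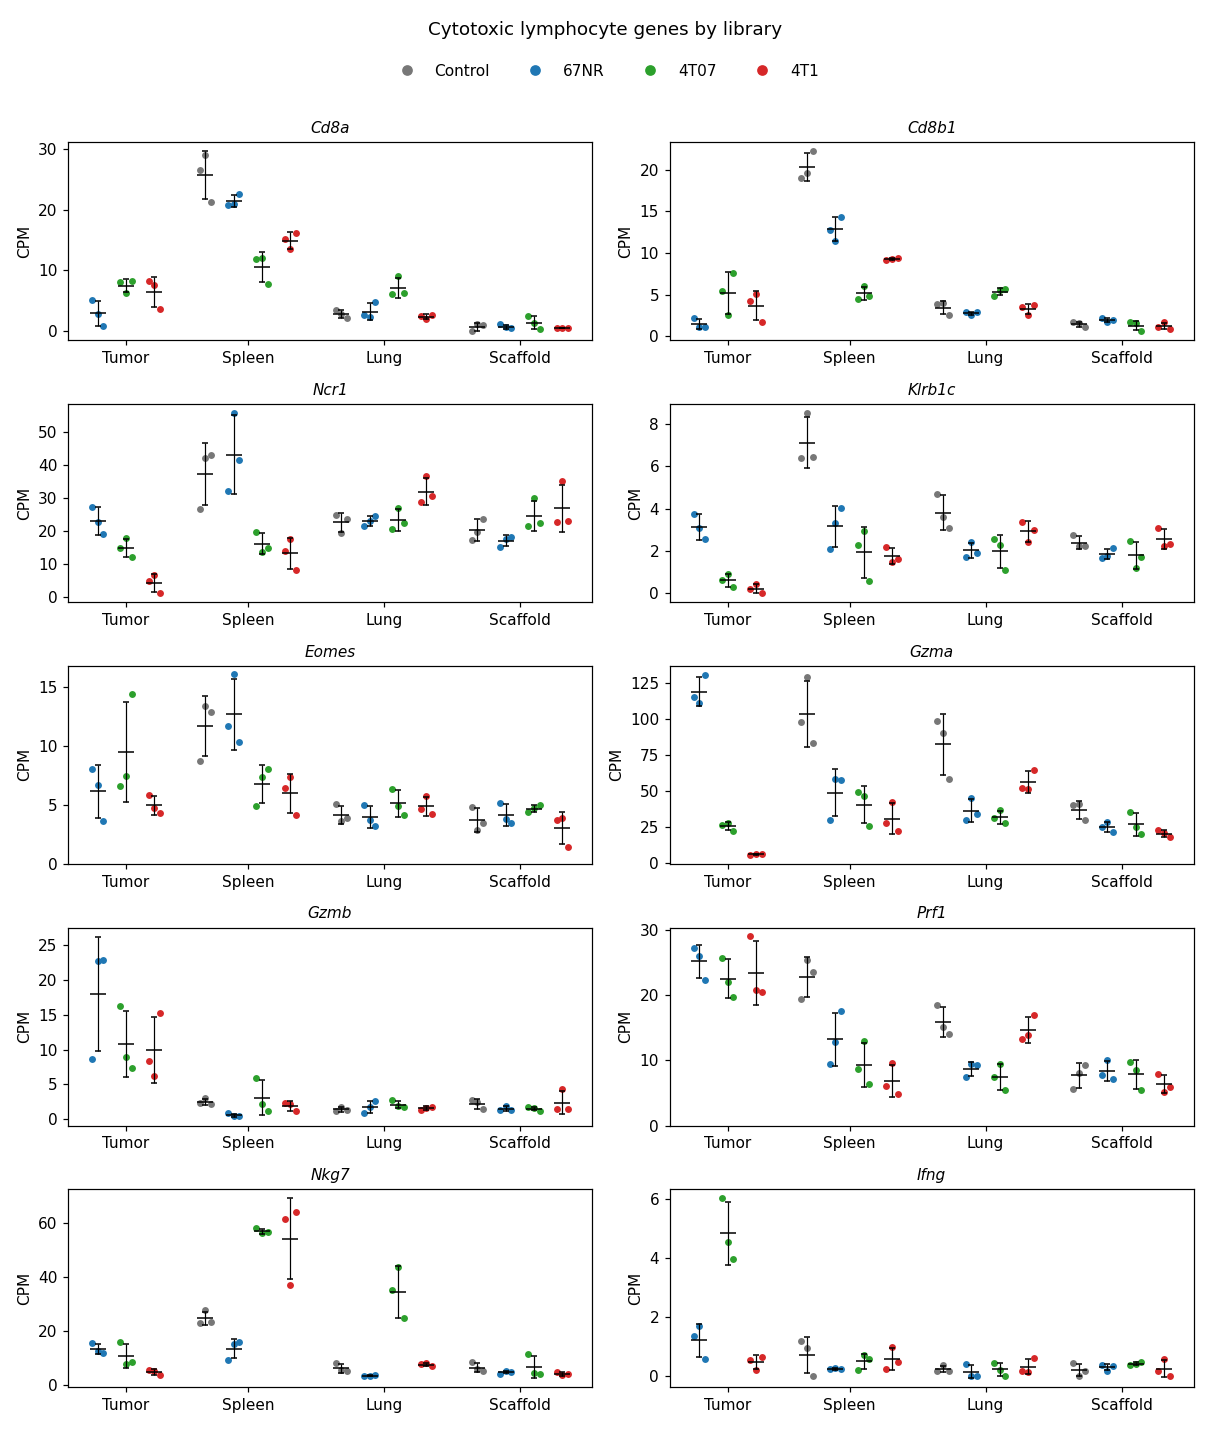
Level of each gene in CPM (vertical axes start at or just below 0) in each of the 45 libraries, by tissue and color-coded by tumor line; bars are the mean and SD of 3 libraries. Gzma in tumors steps down from 67NR (111 to 131 CPM) to 4T07 (22.6 to 28.1 CPM) to 4T1 (5.67 to 6.26 CPM), and Nkg7 stands highest in 4T07 and 4T1 spleens.

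In primary tumors, Gzma and Ncr1 were highest in 67NR and lowest in 4T1 tumors, Cd8b1 and Ifng were higher in 4T07 than in 67NR tumors, and the ranges of Prf1 overlapped in all 3. Against 67NR, 4T07 tumors gave 4 of 10 genes past an adjusted p of 0.05 and a 2-fold change, 2 higher and 2 lower, where 28.9% of the 20508 genes tested passed. Comparing 4T1 with 67NR tumors, 4 genes fell and none rose (20.7% of genes passed). Comparing 4T1 with 4T07 tumors, 4 genes fell (8.61% of genes passed). NK cell markers (Ncr1, Klrb1c, Eomes, Klrd1 and Klre1, of which 3 are among the 10 genes) summed to 29.6 to 44.3, 29.7 to 35.3 and 8.42 to 15.2 CPM in 67NR, 4T07 and 4T1 tumors. Their part in the results below was not tested.

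Gzma, a granzyme abundant in NK cells, was at 116, 111 and 131 CPM in 67NR tumors, 26.3, 28.1 and 22.6 CPM in 4T07 tumors, and 5.67, 5.94 and 6.26 CPM in 4T1 tumors. The 3 groups were fully separated, with a spread inside each that was small beside the steps between them. The log2 change was -2.46 ± 0.17 (adjusted p = 5.77e-08) for 4T07 against 67NR, -2.06 ± 0.19 (adjusted p = 4.35e-06) for 4T1 against 4T07, and -4.52 ± 0.19 (adjusted p = 8.69e-10) for 4T1 against 67NR, a 22.9-fold difference. Ncr1 followed the same order, at 27.4, 22.7 and 19.2 CPM in 67NR, 14.9, 17.8 and 12.1 CPM in 4T07, and 4.94, 6.76 and 1.30 CPM in 4T1 tumors. Its fall from 4T07 to 4T1 passed (log2 -1.73 ± 0.37, adjusted p = 0.00519), as did that from 67NR to 4T1 (-2.60 ± 0.37, adjusted p = 6.57e-05). The step from 67NR to 4T07 did not reach a 2-fold change (log2 -0.87 ± 0.33). Klrb1c, at 14, 11 and 9 counts in 67NR tumors, gave 3, 5 and 1 counts in 4T07 and 1, 2 and 0 counts in 4T1 tumors. By summed counts 4T1 tumors held 0.0638 times the Klrb1c of 67NR tumors (95% exact interval 0.0125 to 0.203), and the edgeR tests against 67NR passed for 4T1 (adjusted p = 0.000484) and for 4T07 (log2 -2.51 ± 0.60, adjusted p = 0.00362). Klrb1c belongs to a family of close copies, so its reads may be incomplete. Klrb1b, of the same family, moved the other way, at 0.370, 3.14 and 2.89 CPM in 67NR, 4T07 and 4T1 tumors. Its log2 change against 67NR was 2.78 in 4T07 and 2.69 in 4T1 tumors. Nkg7 read 15.6, 12.6 and 11.9 CPM in 67NR tumors and 5.67, 5.12 and 3.67 CPM in 4T1 tumors, with 16.1, 7.98 and 8.47 CPM in 4T07 tumors, which overlapped 67NR. It was lower in 4T1 tumors than in 67NR (log2 -1.65 ± 0.31, adjusted p = 0.000843) and 4T07 tumors (-1.11 ± 0.31, adjusted p = 0.0257), though without the 4T07 tumor at 16.1 CPM the second difference was -0.70 with an adjusted p of 0.172. That call was also lost without each of the 3 4T1 tumors. The 4T07 tumor at 16.1 CPM held 5250 CPM of neutrophil markers, against 1862 and 1023 CPM in the other 4T07 tumors. Its erythroid markers summed to 14179 CPM against 3666 and 2963 CPM, and the part of these cells was not tested.

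Cd8b1 was lower in 67NR tumors, at 2.15, 1.12 and 1.13 CPM, than in 4T07 tumors, at 5.42, 2.54 and 7.62 CPM, or 4T1 tumors, at 4.21, 5.12 and 1.73 CPM. The 67NR and 4T07 values did not overlap (log2 1.53 ± 0.54, adjusted p = 0.0331), whereas 4T1 overlapped 67NR (1.12 ± 0.55, adjusted p = 0.135). This call was lost when any of 5 tumor libraries was left out in turn. Cd8a averaged 2.92 ± 2.13, 7.52 ± 1.02 and 6.49 ± 2.47 CPM in 67NR, 4T07 and 4T1 tumors and did not pass in any comparison (adjusted p = 0.0657 for 4T07 against 67NR). T cell markers (Cd3d, Cd3e, Cd3g and Trac) moved with the CD8 genes, summing to 8.39 to 19.9, 29.6 to 93.7 and 16.4 to 64.6 CPM in the 3 tumors. B cell markers summed to 9.51 to 15.9, 31.4 to 171 and 8.63 to 47.4 CPM in the same order. The part of either marker list in the CD8 levels was not tested. Relative to the mean of Cd3d, Cd3e and Cd3g, as given below, Cd8b1 was lower in 4T07 than in 67NR tumors.

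Ifng was highest in 4T07 tumors. It read 5, 6 and 2 counts in 67NR, 30, 25 and 14 counts in 4T07, and 3, 1 and 3 counts in 4T1 tumors. The 4T07 libraries stood above all the others, by log2 1.75 ± 0.49 against 67NR (adjusted p = 0.00939), a call that missed the threshold without 1 of the 67NR tumors (adjusted p = 0.0514). By summed counts 4T1 tumors held 0.0951 times the Ifng of 4T07 tumors (95% exact interval 0.0369 to 0.207; edgeR adjusted p = 0.000714). Of 12 genes of the interferon gamma receptor and its targets, 7 were higher in 4T07 than in 67NR tumors and none lower, with a median log2 change of 1.59 over the list against 0.16 over all genes, of which 28.9% passed. Gbp3, a guanylate-binding protein, rose from 13.2 to 135 CPM. Between 4T1 and 4T07 tumors, 4 of the 12 were lower in 4T1 and 1 higher, beside 8.61% of all genes (median log2 -0.63). For 4T1 against 67NR tumors, the largest called changes of the list without overlap were rises of Jak2, Ciita and Gbp2 (log2 2.00, 1.48 and 1.35). There 20.7% of all genes passed, and Ifng was at 3, 1 and 3 counts in 4T1 and 5, 6 and 2 counts in 67NR tumors. Cxcl9, a chemokine that draws T cells, averaged 36.8, 229 and 44.1 CPM in 67NR, 4T07 and 4T1 tumors (log2 -2.31, adjusted p = 0.000403, for 4T1 against 4T07).

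Prf1, Gzmb and Eomes did not pass in tumors. Prf1 read 27.1, 26.0 and 22.3 CPM in 67NR, 25.7, 22.0 and 19.8 CPM in 4T07, and 29.1, 20.7 and 20.5 CPM in 4T1 tumors. These ranges overlapped throughout, and the log2 difference of 4T1 against 4T07 was 0.11 ± 0.20. Gzmb was variable, at 8.60, 22.7 and 22.9 CPM in 67NR tumors against 8.41, 6.15 and 15.3 CPM in 4T1 tumors (log2 -1.06 ± 0.41, adjusted p = 0.0616). Eomes averaged 6.15 ± 2.25, 9.48 ± 4.27 and 4.96 ± 0.796 CPM. The tumor means of Gzmb, 18.0, 10.8 and 9.96 CPM, were the 3 highest of its 15 groups.

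The granzyme genes Gzmc to Gzmg moved against Gzma in tumors, whereas the Gzmb means, given above, fell in its order without passing. Of the 19 genes listed for granules and killing, not all of them granzymes, 12 rose and 1 fell in 4T07 tumors against 67NR. In 4T1 tumors against 67NR, 10 rose and 2 fell. The median log2 changes were 1.50 and 1.27, against 0.16 and 0.09 over all genes, of which 28.9% and 20.7% passed. Gzmf read 0 to 1.13 CPM in 67NR, 19.1 to 40.4 CPM in 4T07 and 49.4 to 57.1 CPM in 4T1 tumors (log2 6.12 ± 0.46, adjusted p = 1.22e-07, for 4T1 against 67NR). Gzmc averaged 1.20, 11.0 and 33.9 CPM and was higher in 4T1 than in 4T07 tumors by log2 1.69 (adjusted p = 0.00359). Gzmd (0.463, 15.6 and 39.2 CPM), Gzme (0.281, 6.50 and 20.5 CPM) and Gzmg (0.184, 17.1 and 42.6 CPM) followed that order, which is the reverse of Gzma. By summed counts, 4T1 tumors held 232 times the Gzmg of 67NR tumors (95% exact interval 63.8 to 1916). Gzmc to Gzmg are close copies of each other, so reads may have been split or lost among them. Gzmk, in contrast, averaged 3.70 CPM in 4T07 tumors and 0.140 CPM in 4T1 tumors.

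Among 23 genes listed as receptors of NK and cytotoxic cells, 18 were tested in tumors. Between 4T1 and 4T07 tumors, 3 were lower in 4T1 and 2 higher, beside 8.61% of all genes in either direction (median log2 -0.83, against -0.05 over all genes). Klrc1, an NKG2 receptor chain, fell from 31.5 to 5.19 CPM (log2 -2.53, adjusted p = 0.00205), and Cd226, an activating receptor, from 9.24 to 2.48 CPM. Itga2, which encodes the CD49b integrin found on NK cells and also on epithelium, rose in the opposite direction, from 10.6 to 67.0 CPM (log2 2.71 ± 0.20, adjusted p = 4.3e-07), while epithelial markers summed to 152 to 216 CPM in 4T07 and 982 to 1096 CPM in 4T1 tumors. The part of epithelial RNA in the Itga2 reads was not tested. Tbx21, the transcription factor T-bet, averaged 4.18, 4.81 and 0.722 CPM in 67NR, 4T07 and 4T1 tumors (log2 -2.60, adjusted p = 0.00914, for 4T1 against 4T07). Of other transcription factors listed for cytotoxic cells, Bhlhe40 and Nfil3 rose against 67NR in 4T07 (log2 3.04 and 2.61) and 4T1 tumors (3.06 and 2.19). Zeb2 was lower in 4T1 than in 4T07 tumors (log2 -1.17). Ccl5, a chemokine released by cytotoxic cells, fell in the order of Gzma, from 160 to 82.8 to 30.0 CPM. Ccl3 and Ccl4, listed with it as secreted products, did not follow this order. Ccl3 averaged 3.14, 12.2 and 8.61 CPM and Ccl4 19.8, 49.0 and 18.3 CPM in 67NR, 4T07 and 4T1 tumors. Of 14 T cell receptor and signalling genes, 9 were higher in 4T07 than in 67NR tumors, 5 were higher in 4T1 than in 67NR tumors and none was lower (median log2 1.54 and 1.20, beside 28.9% and 20.7% of all genes), among them Cd3g with 1.01, 7.16 and 3.80 CPM.

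**Figure D2:**
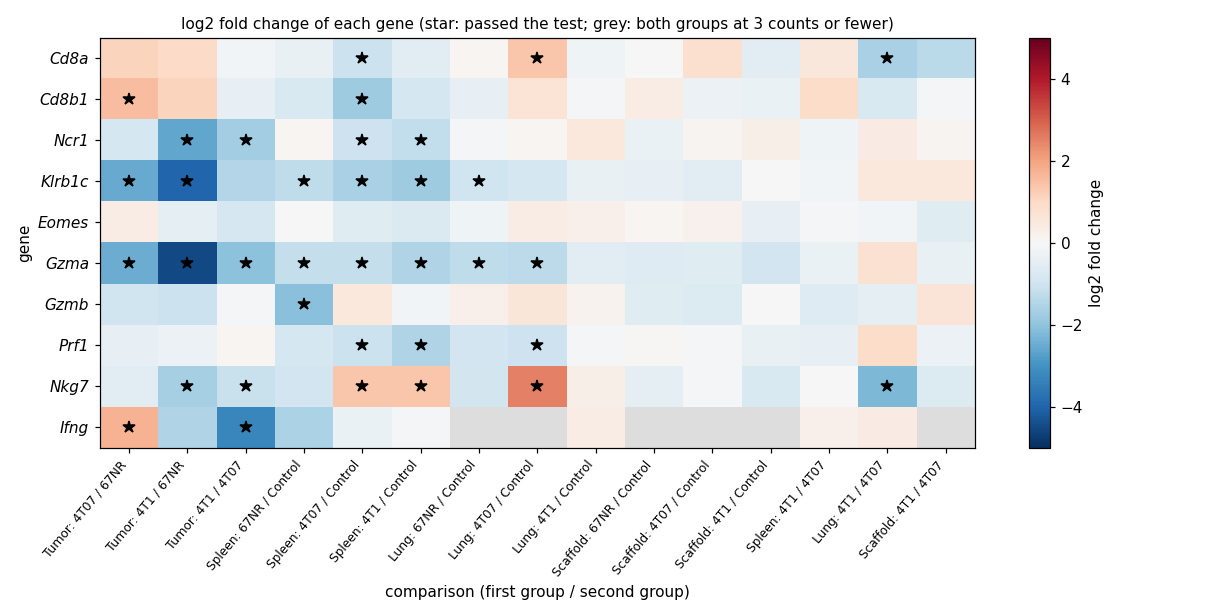
Log2 fold change of each gene (rows) in 15 comparisons (columns, first group over second group), from edgeR fits of each tissue. Blue is lower and red higher in the first group, stars mark genes that passed the threshold of that tissue, and grey cells are those where both groups were at 3 counts or fewer. Gzma is starred in all 3 tumor comparisons, and no gene is starred in scaffolds.

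In spleens, Gzma and Klrb1c fell with each of the 3 tumors, and Nkg7 rose with 4T07 and 4T1 tumors. Calls here and in lungs and scaffolds were made at an adjusted p under 0.10 and a fold over 2. Against control, 67NR spleens had 3 genes lower and none higher (2.26% of 21128 genes passed), 4T07 spleens 6 lower and 1 higher (18.6% passed), and 4T1 spleens 4 lower and 1 higher (19.9% passed). The median log2 change of the 10 genes was -0.93, -1.06 and -0.79, against -0.0018, -0.09 and -0.10 over all genes. T cell markers (Cd3d, Cd3e, Cd3g and Trac) summed to 193 to 290, 200 to 234, 80.9 to 116 and 73.8 to 98.2 CPM in control, 67NR, 4T07 and 4T1 spleens, and the NK cell markers to 62.1 to 81.9, 56.7 to 81.7, 25.8 to 33.4 and 18.7 to 33.1 CPM. Their part in the changes was not tested.

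Gzma fell in the spleen with every tumor. It read 98.3, 129 and 83.9 CPM in control, 30.2, 58.8 and 58.1 CPM in 67NR, 49.2, 46.9 and 25.8 CPM in 4T07 and 28.0, 42.6 and 21.9 CPM in 4T1 spleens. Each control library was above all 9 from tumor-bearing mice, and the log2 changes were -1.19 ± 0.28, -1.18 ± 0.28 and -1.50 ± 0.29 (adjusted p = 0.0335, 0.00589 and 0.000976). Klrb1c fell likewise, from 6.41, 8.54 and 6.47 CPM in control to 2.09 to 4.04 CPM in 67NR, 0.573 to 2.93 CPM in 4T07 and 1.47 to 2.16 CPM in 4T1 spleens (adjusted p = 0.0772, 0.00663 and 0.00444). The 3 calls for 67NR spleens rested on few libraries: leaving out 1 of the 67NR spleens (Gzma at 30.2 CPM) or 1 of the control spleens (Gzma at 129 CPM) left no member past the threshold, and the Klrb1c and Gzmb calls there were each lost without any of 5 libraries.

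Ncr1 and the CD8 genes fell in the spleens of 4T07 mice and Ncr1 also in those of 4T1 mice. Ncr1 was at 26.6, 42.2 and 43.1 CPM in control and 32.0, 55.7 and 41.5 CPM in 67NR spleens, which overlapped, and at 19.8, 13.8 and 14.9 CPM in 4T07 and 13.9, 17.6 and 8.23 CPM in 4T1 spleens. The last 2 groups lay below every control library (log2 -1.03 ± 0.26, adjusted p = 0.00792, and -1.24 ± 0.27, adjusted p = 0.00233). The first came under a 2-fold size without 1 of the 4T07 or either of 2 control spleens (-0.95 to -0.93). Cd8b1 was at 19.0, 19.6 and 22.2 CPM in control, 12.8, 11.5 and 14.4 CPM in 67NR, 4.53, 6.04 and 4.87 CPM in 4T07 and 9.11, 9.30 and 9.37 CPM in 4T1 spleens. All 4 groups were separated, and the change passed for 4T07 (log2 -1.79 ± 0.21, adjusted p = 1.74e-05) but stayed under a 2-fold change for 4T1 (-0.87 ± 0.20, adjusted p = 0.00387) and 67NR (-0.75 ± 0.20, adjusted p = 0.0481). Cd8a fell by 1.09 ± 0.21 on the log2 scale in 4T07 spleens, and its log2 difference in 4T1 spleens, -0.52 ± 0.21, stayed under a 2-fold size. Prf1 averaged 22.8 ± 3.05, 13.2 ± 4.05, 9.30 ± 3.37 and 6.78 ± 2.47 CPM in control, 67NR, 4T07 and 4T1 spleens, and passed for 4T07 (adjusted p = 0.0104) and 4T1 (adjusted p = 0.00133). Without the 4T07 spleen that read lowest for Cd8a, Gzma and Prf1, these 3 changes stayed below a 2-fold size and 4 genes passed in that comparison.

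Nkg7 was the exception. It read 23.1, 27.7 and 23.5 CPM in control spleens, 9.42, 15.1 and 16.1 CPM in 67NR, 58.3, 56.4 and 56.7 CPM in 4T07 and 61.6, 37.0 and 64.2 CPM in 4T1 spleens. The 6 libraries of 4T07 and 4T1 mice lay above every control, with log2 changes of 1.38 ± 0.23 (adjusted p = 0.000324) and 1.40 ± 0.23 (adjusted p = 0.000253), and those of 67NR mice below every control without reaching a 2-fold change (-0.97 ± 0.24). Cst7, which encodes the granule inhibitor cystatin F, rose with it, from 4.28 to 18.8 and 18.4 CPM. Neutrophil markers summed to 971 to 1714 CPM in control, 991 to 1239 CPM in 67NR, 24947 to 30566 CPM in 4T07 and 12478 to 32736.5 CPM in 4T1 spleens, and the 4T1 spleen with the least of them had the lowest Nkg7 of its group. Mast cell and basophil markers summed to 14.9 to 32.0, 8.75 to 9.63, 58.5 to 95.6 and 18.6 to 29.2 CPM in the same order. The part of these cells in the Nkg7 reads was not tested.

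Gzmb was low in all spleens, at 12, 13 and 10 counts in control, 4, 2 and 2 counts in 67NR, 29, 13 and 4 counts in 4T07 and 10, 9 and 5 counts in 4T1 libraries. Its fall in 67NR spleens (log2 -2.08 ± 0.61, adjusted p = 0.0736) rested on those few reads. Eomes averaged 11.7, 12.7, 6.79 and 5.98 CPM and its changes stayed under a 2-fold size. Ifng reached at most 6 counts in any spleen.

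Between tumor lines, 4T07 against 67NR spleens gave 4 genes (14.7% of genes passed), with Nkg7 and Gzmb higher and Cd8b1 and Ncr1 lower in 4T07. In 4T1 against 67NR spleens 3 genes passed (20.7% of genes), with Nkg7 and Gzmb higher and Ncr1 lower. In the first, the Cd8b1 call was lost without either of 2 libraries and the Ncr1 call without 1 (log2 -0.96 to -0.91). In the second, Gzmb was at an adjusted p of 0.104 without 1 of the 4T1 spleens. No member passed in 4T1 against 4T07 spleens by edgeR or by DESeq2 (2.33% of genes passed by edgeR). By edgeR 2 members had an unadjusted p under 0.05, beside 3485 of all 21128 genes. Of these 2 members 1 was Cd8b1, at 9.26 ± 0.135 CPM in 4T1 and 5.15 ± 0.792 CPM in 4T07 spleens, with no overlap and a log2 difference of 0.91 ± 0.22 (adjusted p = 0.0443).

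Of 14 T cell receptor and signalling genes, 10 were lower in 4T07 and 6 in 4T1 spleens than in control and none was higher (median log2 -1.11 and -0.98, against -0.09 and -0.10 over all genes, of which 18.6% and 19.9% passed in either direction). Trbc1, a T cell receptor constant chain, fell from 58.9 to 13.5 and 14.5 CPM. Of 20 receptors of NK and cytotoxic cells tested, 6 and 5 were lower and none higher, beside the same shares of all genes (median log2 -0.55 and -0.45). Among them was Klrk1, the NKG2D receptor, which fell from 20.9 to 6.30 and 5.64 CPM. In the granule list, 4 of 14 genes tested were higher in each and 1 was lower in 4T1, again beside 18.6% and 19.9% of all genes (median log2 0.32 and 0.39). Cst7 and Rab27a (9.42 to 31.9 and 33.8 CPM) rose in both and Stxbp2 in 4T07 spleens (log2 1.57). Myeloid cells also express these genes.

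**Figure D3:**
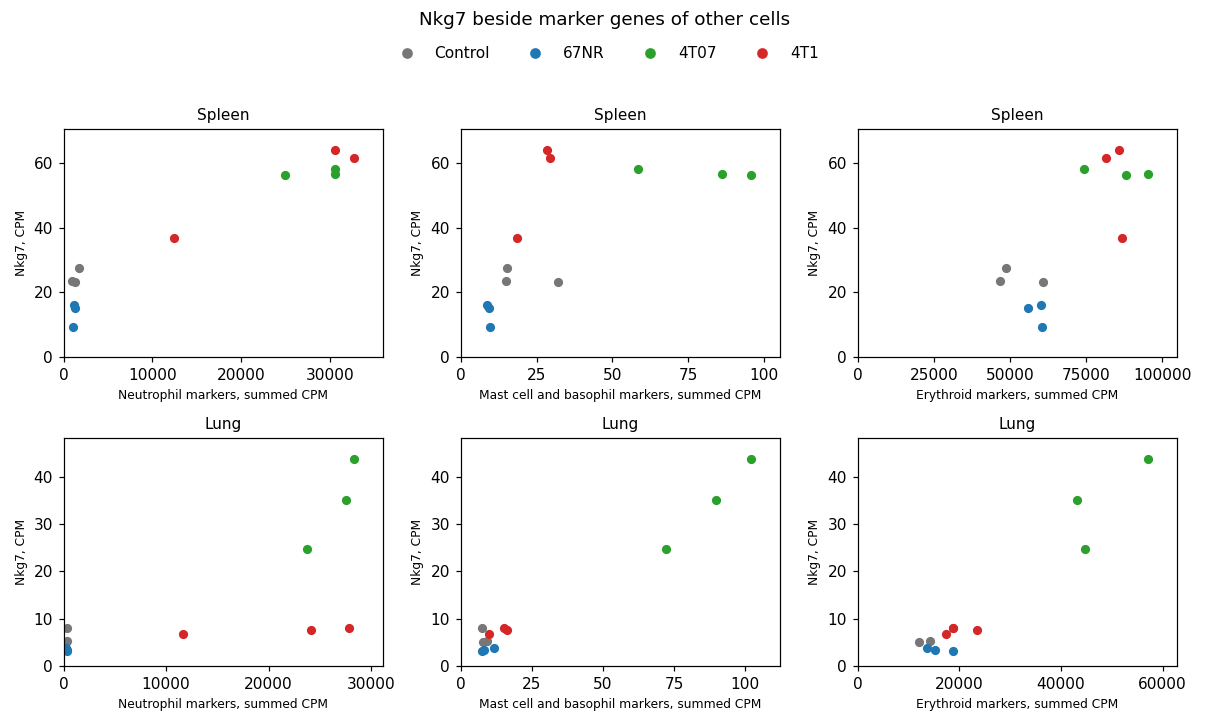
Nkg7 in CPM (vertical) against the summed CPM of neutrophil, mast cell and basophil, and erythroid markers (horizontal) in 12 spleen libraries (top) and 12 lung libraries (bottom), color-coded by tumor line. By neutrophil and erythroid markers, spleens of 4T07 and 4T1 mice lie to the right of control, whereas by mast cell and basophil markers 4T1 spleens (18.6 to 29.2 CPM) overlap control spleens (14.9 to 32.0 CPM). Lungs of 4T1 mice have 11677 to 27840 CPM of neutrophil markers with Nkg7 at 6.90 to 8.05 CPM.

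In lungs, Gzma fell with 67NR and 4T07 tumors, and Nkg7 and Cd8a rose in 4T07 lungs. Against control, 67NR lungs had 2 genes lower and none higher (4.25% of 21937 genes passed), and 4T07 lungs 2 lower and 2 higher (29.0% passed). In 4T1 lungs none of the 10 genes passed by edgeR or DESeq2 (4.61% of genes passed by edgeR). By edgeR 2 of the 10 had an unadjusted p under 0.05, beside 4701 of all 21937 genes. As given above, the 4T07 lungs held fewer lung markers and more erythroid and B cell markers than control lungs.

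Gzma was at 98.7, 90.5 and 58.6 CPM in control, 30.1, 45.3 and 34.1 CPM in 67NR, 31.1, 36.5 and 27.8 CPM in 4T07 and 52.2, 51.5 and 65.1 CPM in 4T1 lungs. The 67NR and 4T07 libraries lay below all controls (log2 -1.28 ± 0.20, adjusted p = 0.00127, and -1.32 ± 0.21, adjusted p = 2.4e-05), and 4T1 lungs overlapped the controls (-0.54 ± 0.20). Prf1 kept this order, at 18.5, 15.1 and 14.1 CPM in control, 7.47, 9.42 and 9.26 CPM in 67NR, 7.41, 9.50 and 5.42 CPM in 4T07 and 13.2, 13.8 and 16.9 CPM in 4T1 lungs. Its change was at the 2-fold threshold, past it in 4T07 lungs (log2 -1.03 ± 0.23, adjusted p = 0.000886) and just short of it in 67NR lungs (-0.97 ± 0.22, adjusted p = 0.00956). The 4T07 call was lost when any of 5 lung libraries was left out, and the adjusted p stayed under 0.01 in each case. Klrb1c averaged 3.80 ± 0.832 CPM in control and 2.01 ± 0.374 CPM in 67NR lungs (log2 -1.01 ± 0.34, adjusted p = 0.075), a call lost without any of 4 libraries and by DESeq2 (adjusted p = 0.102). Ncr1 did not follow Gzma, at 22.6 ± 2.95, 23.0 ± 1.57, 23.3 ± 3.36 and 31.9 ± 4.13 CPM in control, 67NR, 4T07 and 4T1 lungs, with the 4T1 libraries above every control but by less than a 2-fold change (log2 0.51 ± 0.16).

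Nkg7 read 8.02, 5.41 and 5.18 CPM in control, 3.45, 3.25 and 3.76 CPM in 67NR, 35.1, 43.8 and 24.7 CPM in 4T07 and 7.73, 8.05 and 6.90 CPM in 4T1 lungs. The 4T07 lungs were 5.80-fold above control (log2 2.54 ± 0.23, adjusted p = 2.16e-08) and did not overlap any other lung. Neutrophil markers were high in both 4T07 lungs (23719.5 to 28349 CPM) and 4T1 lungs (11677 to 27840 CPM), against 238 to 306 CPM in control. Mast cell and basophil markers were at 72.0 to 102 CPM in 4T07 and 10.0 to 16.3 CPM in 4T1 lungs, and the part of either marker list in the Nkg7 level was not tested. Cd8a was at 6.14, 9.08 and 6.29 CPM in 4T07 lungs, above every control lung at 3.49, 2.89 and 2.10 CPM (log2 1.41 ± 0.32, adjusted p = 0.00117). Cd8b1 also lay above all controls in 4T07 lungs without a 2-fold change (0.69 ± 0.28, adjusted p = 0.0505), and T cell markers summed to 66.6 to 88.5 CPM in 4T07 lungs against at most 50.8 CPM in control lungs.

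Eomes averaged 3.97 to 5.14 CPM and Gzmb 1.44 to 2.12 CPM over the 4 lung groups, and Ifng reached at most 4 counts in any lung. Between tumor lines, 4T07 against 67NR lungs gave 3 genes, Cd8a, Cd8b1 and Nkg7, all higher in 4T07 (29.7% of genes passed). In 4T1 against 67NR lungs Nkg7 alone passed (log2 1.23 ± 0.27, adjusted p = 0.00602; 5.03% of genes passed), and 4T1 against 4T07 lungs gave lower Cd8a and Nkg7 in 4T1 (23.5% of genes passed), by log2 1.62 ± 0.32 and 2.24 ± 0.22 as absolute sizes. In the receptor list, 4 of 21 genes tested were higher and 1 lower in 4T07 lungs than in control (5 of 21 beside 29.0% of all genes, with a median log2 change of 0.43 against -0.0096 over all genes), and 2 were higher in 4T1 lungs (beside 4.61% of all genes), namely Cd244a (11.3 to 37.6 CPM) and Fcgr3 (78.1 to 206 CPM), both also present on myeloid cells. Cst7 rose from 0.693 CPM in control lungs to 15.4 CPM in 4T07 lungs (log2 4.51 ± 0.35) and 1.81 CPM in 4T1 lungs (1.38 ± 0.44). Cxcl9 rose from 1.68 to 19.0 CPM in 4T07 lungs, where Ifng stayed at 2, 1 and 0 counts.

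In scaffolds no member passed in any of the 6 comparisons, by edgeR or by DESeq2. The shares of all 22156 genes that passed were 0%, 7.44% and 0.0226% for 67NR, 4T07 and 4T1 against control, 5.85% for 4T07 against 67NR, 0.0226% for 4T1 against 67NR and 1.00% for 4T1 against 4T07. At an unadjusted p under 0.05, 1 member passed in each comparison except 4T1 against 4T07, which had none. Of all 22156 genes, 626, 5656 and 2682 had an unadjusted p under 0.05 for 67NR, 4T07 and 4T1 against control. The numbers were 5274 for 4T07 against 67NR, 2234 for 4T1 against 67NR and 3338 for 4T1 against 4T07. For 67NR against control, DESeq2 called 1 gene of the table. Gzma was at 40.1, 41.2 and 29.9 CPM in control, 24.8, 28.2 and 21.3 CPM in 67NR, 35.7, 24.8 and 19.9 CPM in 4T07 and 22.9, 20.5 and 18.1 CPM in 4T1 scaffolds. The 67NR and 4T1 scaffolds lay below every control (log2 -0.66 ± 0.21 and -0.97 ± 0.22), short of both the fold and the adjusted p (0.998 and 0.18). Ncr1 averaged 20.3, 17.0, 24.7 and 26.9 CPM, and Prf1 7.68, 8.36, 7.89 and 6.33 CPM, in control, 67NR, 4T07 and 4T1 scaffolds. The CD8 genes gave at most 20 counts in a scaffold library. That highest Cd8a count, and the highest Nkg7 of the scaffolds (11.6 CPM, against 3.54 to 8.39 CPM in the other 11), came from 1 of the 4T07 scaffolds, which also held 15731 CPM of erythroid markers against 1201 to 5820 CPM in the others, and 132 CPM of B cell markers against 36.7 to 58.4 CPM. With that library left out, no member passed in any scaffold comparison.

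Whether an effect differed between tissues was tested directly, as the difference of 2 log2 changes in 1 fit of all 45 libraries at an adjusted p under 0.10. For 4T1 against 4T07, the change in tumors differed from that in scaffolds for 2 genes (5.69% of 27656 genes passed), from that in spleens for 3 (7.55% passed) and from that in lungs for 6 (23.1% passed). Gzma and Ncr1 were in all 3 sets. The Gzma change was lower in tumors than in scaffolds by log2 1.65 ± 0.38, than in spleens by 1.63 ± 0.38 and than in lungs by 2.86 ± 0.38 as absolute sizes (adjusted p = 0.00572, 0.00482 and 1.86e-07). For Ncr1 these sizes were 1.82 ± 0.39, 1.43 ± 0.40 and 2.15 ± 0.39. Between spleen and lung, the change of 4T1 against control differed for 5 genes (15.5% passed), with Gzma, Klrb1c, Ncr1 and Prf1 more negative and Nkg7 more positive in spleens. The change of 4T07 against control differed for 4 genes (20.6% passed), with Cd8a, Cd8b1 and Ncr1 lower in spleens than in lungs relative to control, and a smaller rise of Nkg7 in spleens (log2 1.38) than in lungs (log2 2.54).

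The level of each T cell or granule gene was also set against T cell RNA, as the log2 ratio of the gene to the mean of Cd3d, Cd3e and Cd3g in the same library. In tumors this ratio was higher in 67NR for Gzma, at 5.88 ± 0.52 (SD) against 1.52 ± 0.81 in 4T07 and 0.02 ± 1.01 in 4T1. Prf1 showed the same split, at 3.66 ± 0.42, 1.33 ± 0.77 and 1.89 ± 0.93, with no overlap between 67NR and the other lines. Cd8b1, which was higher by CPM in 4T07 than in 67NR tumors, had the opposite order by this ratio. The 67NR tumors were at -0.09 ± 0.09, from at most 8 Cd8b1 counts in a library. All 4T07 tumors (mean -0.79 ± 0.28) and all 4T1 tumors (mean -0.71 ± 0.27) lay below them. The Cd8a ratios overlapped between the lines. Prf1, whose CPM ranges overlapped across tumors, was higher per unit of T cell RNA in 67NR tumors, whose T cell markers summed to 8.39 to 19.9 CPM against 29.6 to 93.7 and 16.4 to 64.6 CPM in 4T07 and 4T1 tumors. In 67NR tumors Cd3g and Cd3e averaged 1.01 and 1.54 CPM, where 3 counts were 0.806 to 0.847 CPM, so these ratios rest on few Cd3 reads. NK cell markers summed to 29.6 to 44.3 CPM there, and the part of NK cell RNA in the ratios was not tested. In spleens, Cd8a was at -0.53 ± 0.18 in control, -0.39 ± 0.08 in 67NR, -0.32 ± 0.27 in 4T07 and 0.27 ± 0.24 in 4T1, and the 4T1 libraries lay above all the others. Prf1 per T cell RNA overlapped between control and each tumor-bearing group in spleens, while Nkg7 was at -0.57 ± 0.04 in control, 2.09 ± 0.13 in 4T07 and 2.06 ± 0.55 in 4T1. In 4T07 lungs Gzma and Prf1 were at 1.34 ± 0.02 and -0.71 ± 0.17, below 3.40 ± 0.39 and 1.08 ± 0.19 in control, with no overlap. In control, 67NR, 4T07 and 4T1 scaffolds, Gzma was at 4.35 ± 0.31, 3.55 ± 0.09, 3.30 ± 0.23 and 3.37 ± 0.12. Nkg7 was at 1.91 ± 0.19, 1.30 ± 0.17, 1.27 ± 0.28 and 1.19 ± 0.27. For both, all libraries of tumor-bearing mice lay below every control scaffold, whereas Cd8a and Prf1 overlapped control in each group. An exact two-sided permutation test of 3 against 3 libraries cannot give a p below 0.1, and each of these non-overlapping differences gave that value.

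**Figure D4:**
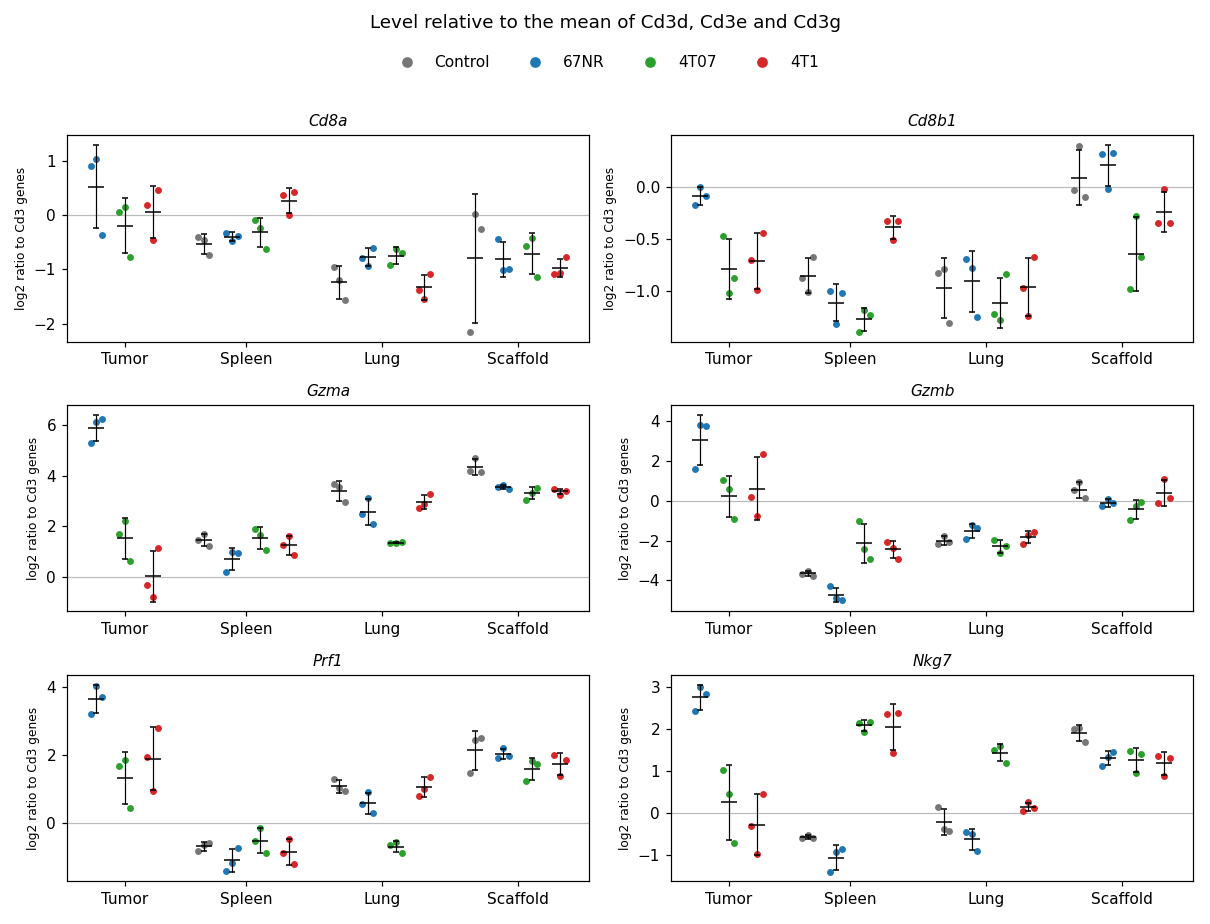
Log2 ratio of each gene to the mean of Cd3d, Cd3e and Cd3g in the same library (vertical axis; pseudocount 0.5 CPM), by tissue and color-coded by tumor line, with the mean and SD of 3 libraries. Gzma, Prf1 and Nkg7 are highest in 67NR tumors, where Cd3g and Cd3e averaged 1.01 and 1.54 CPM, and Nkg7 lies above control in 4T07 and 4T1 spleens.

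Across the 45 libraries, with each tissue centred on its own mean, the genes whose log2 level was most like that of each member were listed among 13757 genes that reached a mean of 5 CPM in a tissue. The libraries share tumor lines and depth, so these correlations are a description only. Gzma and Klrb1c were most like each other among the members (Pearson r = 0.86), followed by Cd8a and Cd8b1 (0.73) and Gzma and Ncr1 (0.69). The gene nearest to Klrb1c in the whole list was Gzma itself, then Clec4b1 (0.84). The genes nearest to Gzma in that list were Cadm1 (0.86), Clec4b1 (0.85) and Afp (0.84). Nkg7 stood with Cst7 (0.90), Pf4 (0.87), the platelet factor, and Nsl1 (0.84), and its correlation with Prf1 was -0.31. Cd8a was nearest to Slamf6 (0.83), a receptor of T cells, and Ifng to Iigp1 (0.69), an interferon-inducible GTPase. Gzmb had no gene above 0.67.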

How the data were processed

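RNA was measured in 45 libraries by QuantSeq 3′ mRNA FWD with a unique molecular identifier (UMI) add-on, sequenced on a NovaSeq. The authors deposited raw counts of reads per gene symbol, and the submitters' processing notes name Trim Galore 0.5.0, STAR 2.6.0 and featureCounts. The genome build, annotation, strand setting and whether UMIs were collapsed are not given in the sources used here. The table held 55487 lines, of which 120 repeated a symbol and were summed. Totals ran from 3491888 to 8175380 counts per library.

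Counts were tested with edgeR 4.0.16 in R 4.3.3 (quasi-likelihood F test, TMM scaling, Benjamini-Hochberg adjustment over all genes tested) in 1 fit per tissue, 1 fit of the control tissues and 1 fit of all 45 libraries for differences between tissues. Genes with more than 10 counts over a fit were kept. A gene was called at an adjusted p under 0.10 in scaffolds, lungs and spleens and under 0.05 in tumors and control tissues, with a fold over 2; differences between tissues were called at 0.10. DESeq2 1.42.0, the test of the study, was an alternative, as were DESeq2 size factors in edgeR, no filter, at least 10 counts in every library, only the groups compared, and each library left out. The standard error is the log2 change divided by the root of F. The CPM shown are not TMM scaled, so their ratios can differ from the log2 changes. The floor was 3 counts, and where a group lay at it, ratios of summed counts are given with 95% exact intervals, which cover counting error only. Ratios to T cell RNA used a pseudocount of 0.5 CPM (1 as alternative). The fits were tested on simulated data, with 200 genes changed 4-fold: edgeR recovered 93.5% of them in the scaffold comparison of 67NR with control and 64.5% in the difference of 4T1 against 4T07 between tumor and scaffold. Of the calls made, 6.5% and 7.86% were false. The changed genes were expected at 10 counts or more in a library of median size, and the spread was set rather than estimated from these data. The recovery therefore does not describe members read with fewer counts.

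The 10 genes and the lists were chosen with earlier results of these data known. Beyond the 10, genes named from a list were drawn from the 3 with the largest called change whose groups did not overlap, or from the 3 most like a member. Not every gene that met this rule is described, so those named are a selection. 1 named gene is not reported here. Promoters are RefSeq GRCm38.p6 windows, and 9 of 10 genes matched. Python 3.11.15, pandas 2.3.3, scipy 1.17.1 and matplotlib 3.10.9 were used.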

Additional observations from a re-analysis of the deposited data

Results flagged for a closer look

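In 20 cases the change of a gene differed between 2 tissues in the fit of all 45 libraries (edgeR, adjusted p under 0.10). Values are the log2 change in the first tissue minus that in the second, ± SE.

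For 4T07 against control, the change in spleen was below that in lung for Cd8a by -2.38 ± 0.51 (adjusted p = 0.000525), Cd8b1 by -2.37 ± 0.42 (5.14e-05), Ncr1 by -1.03 ± 0.36 (0.0395) and Nkg7 by -1.05 ± 0.39 (0.0593). The 4T07 lungs also differed from control lungs in erythroid, B cell and lung markers, whose part was not tested. For 4T1 against control, the difference between spleen and lung was -0.96 ± 0.34 for Gzma (adjusted p = 0.0594), -1.40 ± 0.51 for Klrb1c (0.0691), -1.75 ± 0.36 for Ncr1 (0.000856), -1.39 ± 0.37 for Prf1 (0.00946) and 1.10 ± 0.41 for Nkg7 (0.0746).

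For 4T1 against 4T07, the change in tumor minus that in lung was -2.86 ± 0.38 for Gzma (adjusted p = 1.86e-07), -2.15 ± 0.39 for Ncr1 (4.6e-05), -3.70 ± 1.24 for Ifng (0.0297), -2.04 ± 0.85 for Klrb1c (0.0981), 1.45 ± 0.53 for Cd8a (0.0502) and 1.10 ± 0.43 for Nkg7 (0.0687). Against scaffold it was -1.65 ± 0.38 for Gzma (adjusted p = 0.00572) and -1.82 ± 0.39 for Ncr1 (0.00216). Against spleen it was -1.63 ± 0.38 for Gzma (adjusted p = 0.00482), -1.43 ± 0.40 for Ncr1 (0.0245) and -3.41 ± 1.11 for Ifng (0.0612). Ifng was read with at most 4 counts in any lung and 6 in any spleen, and Klrb1c with at most 5 counts in any of these tumors, so their fitted sizes rest on few reads.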

How the results depend on the processing

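Of 974 alternative values for 79 called changes, 0 were reversed and 51 missed the threshold, and 60 calls were kept under every alternative that tested the gene. An alternative in which a gene was filtered out or had no adjusted p was not counted for it. With at least 10 counts required in every library, fewer genes were tested, and the number of members called became 2 for lung against spleen, 0 for scaffold against lung, 1 for 67NR against control lungs, 1, 2 and 2 for 4T07 against 67NR, 4T1 against 4T07 and 4T1 against 67NR tumors, 1 and 3 for the spleen minus lung differences of 4T07 and 4T1, and 3 and 1 for the tumor minus lung and tumor minus scaffold differences. DESeq2 called 1 for 67NR against control lungs, and its cause was not tested. Leaving out 1 library at a time gave 0 to 3 calls for scaffold against lung, 1 to 4 for 67NR lungs, 4 to 7 for 4T07 spleens, 0 to 4 for 67NR spleens and 0 to 1 for 4T1 against 4T07 spleens. It was not run for the differences between tissues. The tumor minus lung difference of Klrb1c missed the threshold with DESeq2 (adjusted p = 0.105) and with no filter (0.172), and its spleen minus lung difference with no filter (0.158). DESeq2 moved the all-gene median of the tumor minus spleen difference by -0.12. Of 1008 values per T cell RNA, 24 moved by more than the spread between libraries, all with another set of T cell genes as the reference. Most of the 1008 left out 1 of 3 libraries. Such a step cannot shift a group mean by that spread, so those values could not move and say nothing on stability. No paired analysis was possible because the groups share no replicate numbers. Depth limits Ifng, Klrb1c and Gzmb, read with few counts in most tissues.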
